A study of Homo sapiens with 12 samples.

Results

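The 10 genes VEGFA, VEGFB, HIF1A, EPAS1, ADM, ANGPTL4, CA9, BNIP3, NDRG1 and SLC2A1 were followed together to see whether VEGFA changed with or without other genes of the response to low oxygen. Their members were the gene probes that the scanner files name for them, which came to 17 of 41000 probes and 10 of 29245 gene names. Of these probes 16 passed the filter on dim spots, and every gene had at least 1 that did. The exception among the probes was 1 of the 4 for VEGFA, which was not well above background on any array. The set was chosen by the measured change of VEGFA between SLMP53-2 and DMSO on these arrays, with earlier results for the others known, so all differences from DMSO are given as descriptions.

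The RNA came from HuH-7, a human hepatocellular carcinoma line whose labels give a mutant p53, and no other line or p53-null culture was among the 12 arrays. The cultures had received the solvent DMSO, 28 µM SLMP53-2 or 42 µM SLMP53-2 for 24 h, the doses being 2 and 3 times the IC50 of this compound, and each group held 4 biological replicates, all of 1 cell line. The treatment field of the labels gives 48 µM for the arrays that the titles, the protocol and the design text put at 42 µM, and 42 µM is used here. The arrays were 1-colour Agilent whole-genome arrays on 5 slides, with 65.0 to 85.0% of gene spots well above background, and their number limits the precision. All 12 liver cell markers (albumin and the like) were detected on every array. Their summed level lay between 18.09 and 18.34 on the log2 scale in all groups, while of 6 endothelial markers VWF and ERG were detected on 12 arrays, PECAM1 on 11, CDH5 on 10 and TEK and TIE1 on none. The summed endothelial level lay between 8.61 and 8.97.

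A cell reads oxygen through the hypoxia-inducible factors (HIF). The alpha subunits HIF1A and EPAS1 (HIF-2α) are made continuously, hydroxylated when oxygen is present and then destroyed through the VHL ubiquitin ligase, so their activity is set largely at the protein and less at the mRNA, which is what the arrays measure. When oxygen falls they pair with ARNT, bind short elements with an ACGTG or GCGTG core and raise genes of glucose uptake and glycolysis, mitochondrial turnover, pH control and vessel growth. In liver tumours VEGFA is the main vessel growth factor, and it is also raised by stress pathways other than HIF, ATF4 among them.

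The sequence just upstream of the start site is shown for 4 of the genes, because they differ in how many HIF core letters they hold and, as described further on, in the direction of their values. RefSeq windows of GRCh38.p14 were matched for 8 of the 10 genes, all but VEGFA and NDRG1. The 250 bases before the start are printed 5′ to 3′ on the gene's strand, at chr11:64234334-64234583 (plus strand) for VEGFB, chr11:10304823-10305072 (plus) for ADM, chr10:131981924-131982173 (minus) for BNIP3 and chr1:42958869-42959118 (minus) for SLC2A1. Capitals mark each ACGTG or GCGTG on the printed strand and each CACGT or CACGC, the same letters on the other strand.
VEGFB: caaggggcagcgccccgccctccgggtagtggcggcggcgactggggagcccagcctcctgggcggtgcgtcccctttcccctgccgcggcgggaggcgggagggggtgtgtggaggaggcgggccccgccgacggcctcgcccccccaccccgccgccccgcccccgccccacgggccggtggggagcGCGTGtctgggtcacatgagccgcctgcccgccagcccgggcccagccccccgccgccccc
ADM: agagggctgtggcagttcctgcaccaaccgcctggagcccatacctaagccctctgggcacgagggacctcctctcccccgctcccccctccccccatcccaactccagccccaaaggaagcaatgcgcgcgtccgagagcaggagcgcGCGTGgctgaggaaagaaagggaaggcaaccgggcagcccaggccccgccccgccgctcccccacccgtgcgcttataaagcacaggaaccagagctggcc
BNIP3: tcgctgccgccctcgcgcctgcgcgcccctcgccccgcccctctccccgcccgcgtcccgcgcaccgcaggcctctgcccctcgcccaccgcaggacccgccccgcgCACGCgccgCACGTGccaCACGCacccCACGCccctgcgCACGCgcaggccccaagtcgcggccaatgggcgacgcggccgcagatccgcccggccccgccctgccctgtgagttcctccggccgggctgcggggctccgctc
SLC2A1: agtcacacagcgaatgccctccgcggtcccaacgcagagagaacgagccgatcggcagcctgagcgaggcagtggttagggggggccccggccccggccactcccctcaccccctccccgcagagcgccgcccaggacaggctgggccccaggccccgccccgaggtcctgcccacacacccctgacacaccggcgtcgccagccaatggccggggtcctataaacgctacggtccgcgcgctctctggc
VEGFB held 1 core, 61 bases before the start, and ADM held 1, 101 bases before it. BNIP3 held 6, from 143 to 104 bases before the start, of which a pair overlapped in CACGTG. SLC2A1 held none in this window, which says nothing about elements elsewhere. Over the genes matched, 7 of 8 held at least 1 core, and so did 43.2% of all 35116 windows of this length, so the letters are common, and a match is not a bound site.

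At 42 µM VEGFA was 2.27-fold higher than with DMSO, and VEGFB stood higher beside it. None of the 6 other HIF target genes among the 10 was higher beyond its spread. SLC2A1 was lower, ADM, BNIP3 and NDRG1 had all 4 treated arrays below the 4 DMSO arrays, and ANGPTL4 and CA9 lay within the range of the controls or at background. The mRNA of HIF1A and EPAS1 had no difference larger than the spread between arrays. At 28 µM VEGFA, VEGFB, ADM, BNIP3, NDRG1 and SLC2A1 had the same sign with smaller differences when all arrays were used. In that group 1 array, replicate 4, lay near the DMSO arrays for several genes. The log2 fold changes of these genes at 28 µM are therefore given with and without it. Without it ADM was at −0.41, beyond its −0.30 at 42 µM, and BNIP3 at −0.55 was close to its −0.57.

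**Figure D1:**
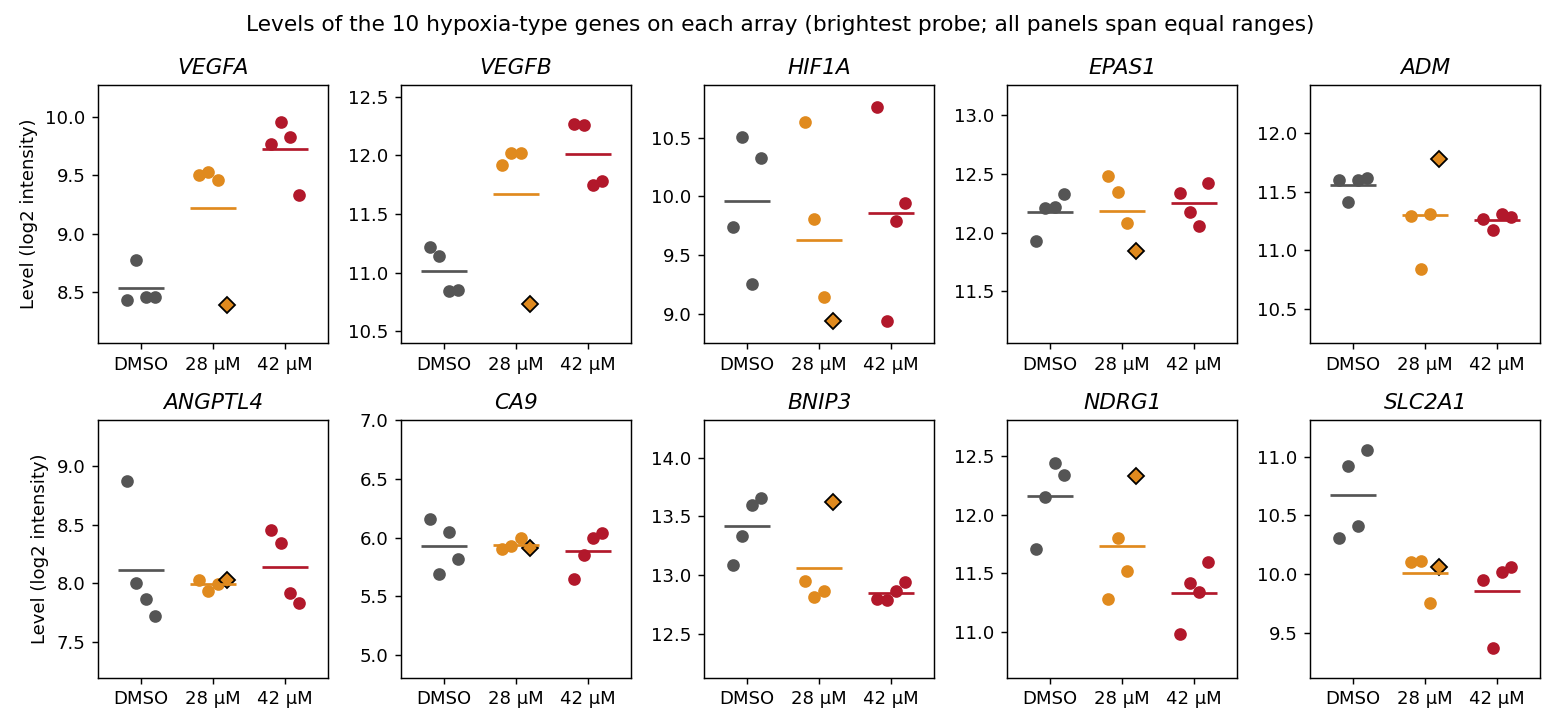
Level of each of the 10 genes (log2 of the normalised intensity, y axis) on the 12 arrays by group (x axis). Points are arrays in replicate order, bars are group means and the black-edged diamond is 28 µM replicate 4. VEGFA and VEGFB at 42 µM sit above all DMSO arrays, and ADM, BNIP3, NDRG1 and SLC2A1 sit below them.

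VEGFA encodes the growth factor that drives endothelial cells to divide and form vessels. Its brightest probe is split over 412 bases of the genome for 60 bases of probe, so it lies across an intron. The probe read 8.44, 8.78, 8.46 and 8.46 on DMSO replicates 1 to 4, 9.50, 9.53, 9.46 and 8.39 on 28 µM replicates 1 to 4, and 9.77, 9.95, 9.83 and 9.33 on 42 µM replicates 1 to 4, all log2 levels. Every 42 µM array lay above every DMSO array, 3 of the 28 µM arrays did so as well, and 28 µM replicate 4 lay below them all. In RNA from whole cultures more transcript per cell and more cells with the transcript cannot be told apart.

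The mean level of VEGFA was 8.54 ± 0.17 (SD, n = 4) with DMSO, 9.22 ± 0.56 (SD, n = 4) at 28 µM and 9.72 ± 0.27 (SD, n = 4) at 42 µM. The log2 fold change was 0.68 (SE 0.23, 95% interval 0.18 to 1.18) at 28 µM and 1.18 (SE 0.23, 95% interval 0.69 to 1.68) at 42 µM. Without 28 µM replicate 4 the mean at 28 µM was 9.50 ± 0.04 (SD, n = 3) and the log2 fold change 0.96. Within the slides that held both groups, the 42 µM array was above the DMSO array by 1.31, 1.48 and 1.04, and the 28 µM array by 1.02 and 1.05, while 28 µM replicate 4 was at −0.08. A call, which needed an adjusted p under 0.05 in limma and a size of 0.6 or more on the log2 scale, was met at 42 µM. The call was lost, with the value at 1.15, 1.27, 1.16 and 1.16, without DMSO replicate 1, 2, 3 or 4, and at 1.11 without 42 µM replicate 2. It was also lost with the slide as a block, at 1.22 (limma adjusted p = 0.0693).

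The other VEGFA probes moved the same way by less. A probe printed as 10 spots on each array read 7.76, 7.53, 7.74 and 7.64 with DMSO, 7.77, 8.04, 8.09 and 7.91 at 28 µM, and 7.95, 8.43, 8.23 and 7.99 at 42 µM. Both treated groups lay wholly above DMSO for it, with 28 µM replicate 4 among them, but its log2 fold changes were 0.29 (SE 0.13) and 0.49 (SE 0.13) and neither was called. The third probe had log2 fold changes of 0.13 (SE 0.14) and 0.48 (SE 0.14). So the probes of VEGFA shared the direction at 42 µM and differed in size, from 1.40-fold to 2.27-fold.

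VEGFB, a relative of VEGFA that binds the receptor FLT1 and is tied to lipid handling more than to vessel sprouting, had 2 probes. The brighter one, at chr11:64006111-64006170 of hg19, read 11.22, 11.14, 10.84 and 10.85 with DMSO, 11.92, 12.02, 12.02 and 10.73 at 28 µM, and 12.27, 12.26, 11.75 and 11.78 at 42 µM. The pattern was that of VEGFA, with all 42 µM arrays and 3 of the 28 µM arrays above DMSO and 28 µM replicate 4 below. Its log2 fold change was 0.66 (SE 0.26) at 28 µM, or 0.97 without replicate 4, and 1.0 (SE 0.26, 95% interval 0.45 to 1.55) at 42 µM. It was not called at 42 µM, but it was called in 7 of the 24 alternatives, at 0.97 to 1.02, among them the fit without 28 µM replicate 4, array weights and the slide as a random block.

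The second VEGFB probe is shown since it was the one called at 42 µM with all arrays. It covers chr11:64003454-64003757 of hg19 on the plus strand, 304 bases for 60 bases of probe, so it crosses an intron.
VEGFB probe: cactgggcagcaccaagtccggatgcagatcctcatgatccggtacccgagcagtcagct
It read 7.33, 7.16, 7.35 and 7.18 with DMSO, 7.86, 7.85, 8.17 and 7.39 at 28 µM, and 8.20, 8.46, 7.79 and 7.95 at 42 µM. Here all treated arrays lay above all DMSO arrays, replicate 4 of 28 µM by the least, and the log2 fold changes were 0.56 (SE 0.17) and 0.85 (SE 0.17).

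The other ligands (VEGFC, VEGFD, PGF) and the receptors and co-receptors (FLT1, KDR, FLT4, NRP1, NRP2) gave 8 tested genes, of which 0 were called in limma at 42 µM, where 3.00% of all genes were, a share at which 8 genes say little. Their log2 fold changes ran from −0.29 to 0.38, none at the size limit, with a median of −0.09, against −0.02 over all genes. None of them had its 42 µM arrays wholly above or below the DMSO arrays, where 5.94% and 7.02% of all genes did.

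HIF1A, the oxygen-controlled subunit itself, was read by a probe of 10 spots at chr14:62214845-62214904 of hg19. Its levels were 9.74, 10.51, 9.25 and 10.33 with DMSO, 10.63, 9.81, 9.14 and 8.94 at 28 µM, and 10.76, 8.94, 9.79 and 9.94 at 42 µM. The groups overlapped almost entirely. The log2 fold changes were −0.33 (SE 0.42, 95% interval −1.22 to 0.57) and −0.10 (SE 0.42, 95% interval −1.0 to 0.79), an interval wide enough to hold a change of either sign.

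The spread of HIF1A lay mostly between slides. Of the sum of squares around the group means, 88.6% lay between slides, the largest share of the 10 genes, and the slide means were 9.44, 10.57, 9.88, 9.04 and 10.15. For VEGFA this share was 20.5%, the smallest. Within slides the 42 µM array of HIF1A differed from the DMSO array by 0.43, −0.31 and −0.72, so no direction held there either. With 5 slides for 12 arrays part of such a share lies between slides even without a slide effect. Neither the share nor what differs between the slides was tested.

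**Figure D2:**
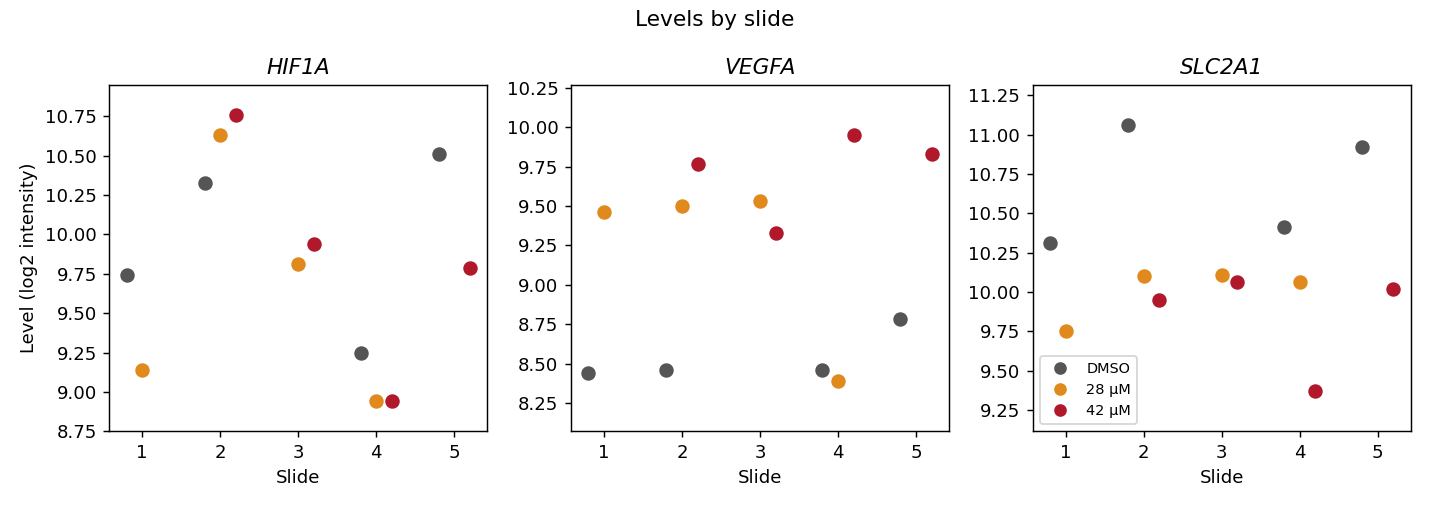
Level (log2 of the normalised intensity, y axis) of HIF1A, VEGFA and SLC2A1 by slide (x axis), with 1 point for each array coloured by group. The HIF1A means of the slides run from 9.04 on slide 4 to 10.57 on slide 2. Its points lie near each other on slides 2, 3 and 4. On slide 1 the 28 µM point differs from DMSO by −0.60, and on slide 5 the 42 µM point by −0.72. For VEGFA and SLC2A1 the DMSO and 42 µM points are apart on each slide that holds both.

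EPAS1, the second HIF alpha subunit, was measured with a smaller spread, at chr2:46613666-46613725 of hg19. It read 11.93, 12.21, 12.22 and 12.33 with DMSO, 12.48, 12.35, 12.08 and 11.84 at 28 µM, and 12.34, 12.18, 12.06 and 12.42 at 42 µM. The 3 groups overlapped. The log2 fold change was 0.01 (SE 0.15, 95% interval −0.31 to 0.34) at 28 µM and 0.08 (SE 0.15, 95% interval −0.25 to 0.40) at 42 µM, and the sign at 42 µM turned to −0.17 when Agilent's processed signal was scaled to the 75th percentile. A dimmer probe gave −0.05 and −0.02.

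Among the genes that HIF raises, SLC2A1 encodes GLUT1, the main glucose transporter of cells in low oxygen. Its probe at chr1:43391874-43391933 of hg19 read 10.31, 10.92, 10.41 and 11.06 with DMSO, 10.10, 10.11, 9.75 and 10.06 at 28 µM, and 9.95, 9.37, 10.02 and 10.06 at 42 µM. All treated arrays of both doses were below all DMSO arrays, and here 28 µM replicate 4 kept with its group. The log2 fold change was −0.67 (SE 0.19) at 28 µM, or −0.69 without replicate 4, and −0.82 (SE 0.19, 95% interval −1.24 to −0.41) at 42 µM, where it was called. Within slides the 42 µM array differed from DMSO by −1.11, −1.04 and −0.90. The call at 42 µM was lost without DMSO replicate 1, 2, 3 or 4 (−0.95, −0.74, −0.91 and −0.70), and also when 42 µM replicate 1, 2 or 3 was dropped (−0.86, −0.67 and −0.88). It was lost as well with the slide as a block (−0.96), with Agilent's processed signal under either scaling (−0.86 and −0.93) and in a model of only the 2 groups (−0.82). A second, dimmer probe of SLC2A1 had −0.25 (SE 0.15) and −0.33 (SE 0.15) and was not called.

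NDRG1, a stress-responsive gene used as a marker of hypoxia in tumours, read 11.71, 12.15, 12.44 and 12.34 with DMSO, 11.28, 11.80, 11.52 and 12.33 at 28 µM, and 10.98, 11.42, 11.34 and 11.60 at 42 µM. The 42 µM arrays were all below the DMSO arrays, and 28 µM replicate 4 was again among the controls. Its log2 fold change was −0.43 (SE 0.22) at 28 µM, or −0.63 without replicate 4, and −0.83 (SE 0.22, 95% interval −1.31 to −0.35) at 42 µM. It was not called, but it was called in 8 of the 24 alternatives, at −1.06 to −0.83. These were the fits without 28 µM replicate 1 or 4, both scalings to the 75th percentile, the random slide block, the replicate block, the model of only the 2 groups and array weights. A dim second probe, above background on 2 of 4 arrays at each dose, gave −0.06 and −0.27.

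BNIP3, which marks mitochondria for removal and whose upstream window holds the 6 cores shown above, read 13.09, 13.33, 13.60 and 13.66 with DMSO, 12.95, 12.81, 12.86 and 13.62 at 28 µM, and 12.80, 12.79, 12.86 and 12.94 at 42 µM (chr10:133781311-133781370 of hg19). The 42 µM arrays were tightly grouped below all DMSO arrays, and 28 µM replicate 4 stood with the higher DMSO arrays. The log2 fold change was −0.36 (SE 0.18) at 28 µM, or −0.55 without replicate 4, and −0.57 (SE 0.18, 95% interval −0.96 to −0.19) at 42 µM, under the size a call needs. It was called with Edwards values scaled to the 75th percentile (−0.79) and with array weights (−0.62).

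ADM encodes adrenomedullin, a vessel-dilating peptide and a common HIF target. Its probe of 10 spots at chr11:10328780-10328839 of hg19 read 11.60, 11.41, 11.60 and 11.62 with DMSO, 11.29, 10.84, 11.31 and 11.78 at 28 µM, and 11.27, 11.17, 11.31 and 11.28 at 42 µM. The 42 µM arrays lay below all DMSO arrays by a small margin. The log2 fold change was −0.25 (SE 0.16) at 28 µM, or −0.41 without replicate 4, and −0.30 (SE 0.16, 95% interval −0.65 to 0.05) at 42 µM.

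ANGPTL4, an inhibitor of lipoprotein lipase that both HIF and PPAR factors raise, read 8.87, 8.00, 7.87 and 7.72 with DMSO, 8.03, 7.93, 7.99 and 8.03 at 28 µM, and 8.45, 8.34, 7.92 and 7.83 at 42 µM (chr19:8439169-8439228 of hg19). DMSO replicate 1 was the highest of the 12 arrays. The log2 fold changes of −0.12 (SE 0.22) and 0.02 (SE 0.22) had no direction that held without single arrays.

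CA9 encodes the surface carbonic anhydrase IX, often taken as the strictest readout of HIF1A activity. Its probe was well above background on 2 DMSO arrays, 2 arrays at 28 µM and none at 42 µM. The readings were 6.16, 5.69, 6.05 and 5.82 with DMSO, 5.90, 5.93, 6.00 and 5.91 at 28 µM, and 5.65, 5.85, 6.00 and 6.04 at 42 µM. With the signal at the limit of detection no fold is given for 42 µM, and a rise from background to a clear signal was not seen on any treated array.

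**Figure D3:**
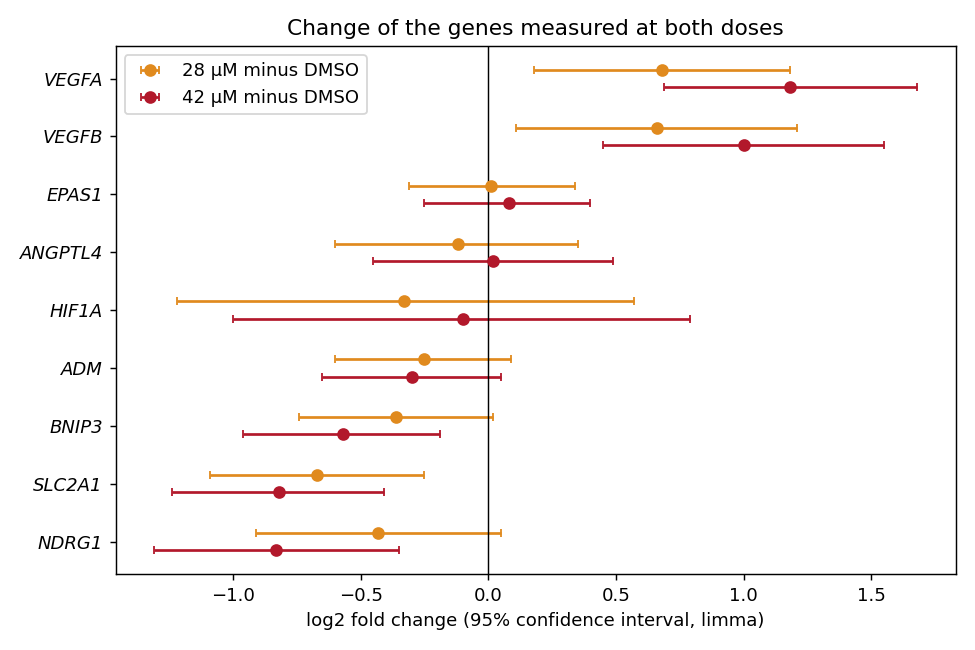
log2 fold change (x axis) of 9 of the genes at 28 µM and 42 µM against DMSO, with points for the estimates and bars for 95% confidence intervals from limma; CA9, not well above background at 42 µM, is left out. VEGFA at 1.18 and VEGFB at 1.0 lie to the right of 0, and SLC2A1 at −0.82 and NDRG1 at −0.83 to the left.

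Counted together at 42 µM, 1 of the 10 genes was called higher (VEGFA) and 1 lower (SLC2A1). Over all 24251 tested genes 1.57% were called higher and 1.43% lower, 3.00% in all, and nothing is read from the members' count because they were chosen with these values known. All 4 arrays lay above DMSO for 2 genes (VEGFA, VEGFB) and below for 4 (ADM, BNIP3, NDRG1, SLC2A1), where 5.94% and 7.02% of all genes did so. The median log2 fold change of the 10, the fitted value of CA9 included, was −0.07, against −0.02 over all genes.

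At 28 µM 0 of the 10 genes were called in limma, as were 0% of all genes. At an unadjusted p under 0.05 with the same size limit the members numbered 3 and all genes 653. The arrays did not overlap with DMSO for 1 of the 10, SLC2A1, which was lower, where 2.78% of all genes were wholly above and 2.93% wholly below. Without 28 µM replicate 4, 2 of the 10 were called at 28 µM (VEGFA, VEGFB) beside 2.43% of all genes, and 4 at 42 µM (VEGFA, VEGFB, NDRG1, SLC2A1) beside 4.12%.

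Between the doses, 0 of the 10 genes and 0% of all genes were called at 42 µM against 28 µM, and at an unadjusted p under 0.05 with the size limit the numbers were 0 and 73. VEGFA was higher at 42 µM by 0.50 (95% interval 0.00 to 1.0, limma adjusted p = 1). That difference fell to 0.22 without 28 µM replicate 4, and the arrays of the 2 doses overlapped in both cases. The widest differences of the others were −0.40 for NDRG1 and 0.34 for VEGFB, each with a 95% interval that held 0. For none of the 10 were the arrays of the 2 doses apart, where 0.685% of all genes were wholly above and 0.920% wholly below.

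The question of whether other HIF targets moved with VEGFA was put to 75 further genes listed from general knowledge, of which 73 were tested. At 42 µM 6 of them were called higher and 5 lower, and 62 were not called. That is 8.22% and 6.85% of the list, beside the 1.57% and 1.43% of all genes. A fit that blocked on the slide called 0 of them in either direction. The share of all genes called in that fit is not given, so this 0 is not read as particular to HIF targets. The list as a whole leaned slightly down, with 23 genes above 0 and a median log2 fold change of −0.16. Of all genes 45.8% were above 0, with a median of −0.02, and the difference was not tested.

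The 6 that rose were led by STC2, a secreted glycoprotein, with a log2 fold change of 3.05 (SE 0.46, limma adjusted p = 0.0112). DDIT4, an inhibitor of mTORC1 signalling, rose by 2.65 (SE 0.54, limma adjusted p = 0.0222). The related transcriptional repressors BHLHE40 and BHLHE41 rose by 1.84 and 1.07, the lipoprotein receptor VLDLR by 1.67 and the enolase ENO2 by 0.87. Of these STC2, DDIT4 and VLDLR also stand on a list of 24 genes known to be raised by ATF4, the transcription factor of the amino acid and endoplasmic reticulum stress response. That list, too, was chosen with earlier results of these data known, so nothing is read from its count or median. On it 20 genes were called higher at 42 µM and 1 lower, beside 1.57% and 1.43% of all genes. Its median log2 fold change was 1.81, against −0.02 over all genes. As they stand on both lists, 3 of the 6 HIF targets that rose cannot be told apart from ATF4 targets by their list.

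The 5 that fell were LDHA, PGAM1, CITED2, PLOD2 and LOX. LDHA, which turns pyruvate into lactate, fell by 1.28 on the log2 scale (SE 0.29, limma adjusted p = 0.0338), and the glycolytic mutase PGAM1 fell by 1.02 (SE 0.20, limma adjusted p = 0.0184). CITED2, which competes with HIF1A for its coactivators, fell by 0.88. The collagen-modifying enzymes PLOD2 and LOX fell by 0.66 and 0.62. On 28 µM replicate 4 LDHA read 14.86 and PGAM1 14.16, at or above the DMSO means of 14.68 and 14.07, while STC2 read 9.02 and DDIT4 10.17, near the DMSO means of 8.76 and 10.16.

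**Figure D4:**
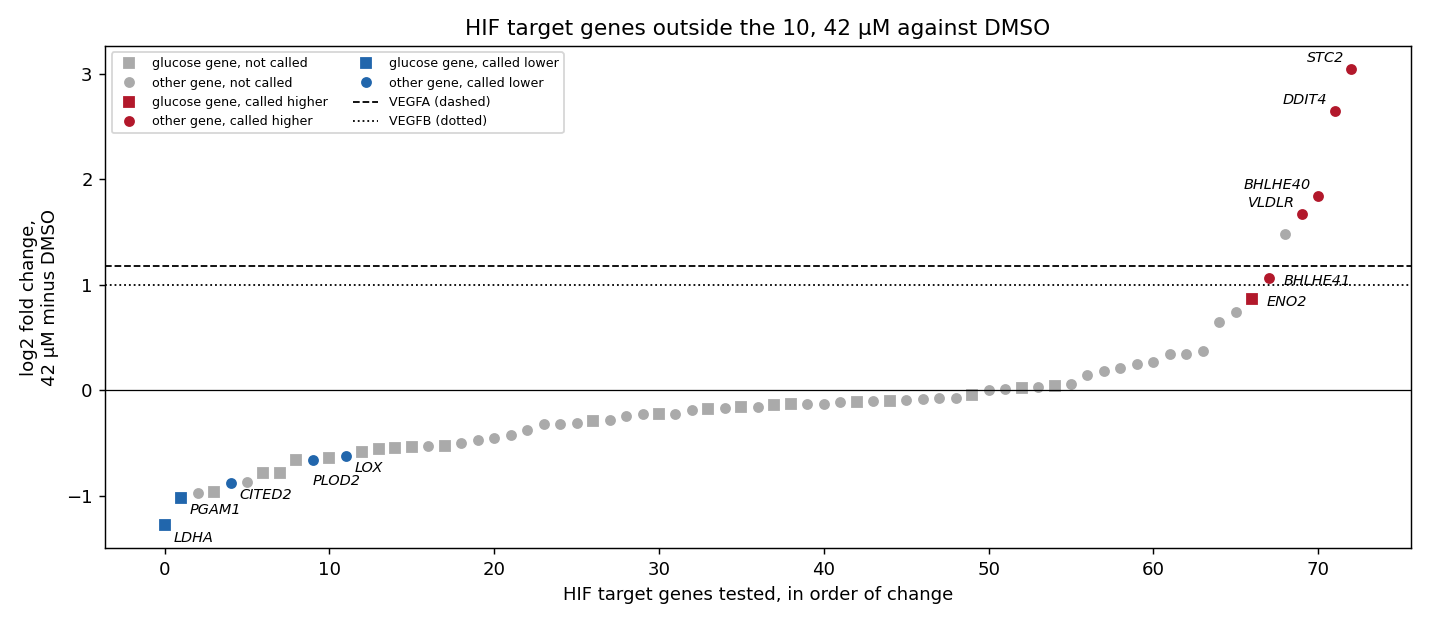
log2 fold change at 42 µM against DMSO (y axis) of the 73 tested HIF target genes outside the 10, in rising order (x axis). Squares are genes of glucose use and circles the other genes, colours give the limma call, and the lines give VEGFA (1.18, dashed) and VEGFB (1.0, dotted). A few genes lie above VEGFA, most lie near or under 0, and the lowest 2, LDHA and PGAM1, are squares.

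Split by role, 24 tested HIF targets serve glucose uptake and glycolysis. Of them 3 had a log2 fold change above 0 at 42 µM, where 45.8% of all genes did, and the median was −0.41. All 42 µM arrays lay below the DMSO arrays for 8 and above for 1 (7.02% and 5.94% of all genes). Of the 24 genes 1 was called higher (ENO2) and 2 lower (LDHA, PGAM1), beside 1.57% and 1.43% of all genes. Among the 49 other targets 20 were above 0, beside the same 45.8%. There 5 were called higher and 3 lower, and the median was −0.10. The difference between the lists was not tested. SLC2A1 thus had the direction of most glucose genes on the list. At the level of dimmer probes, TPI1, a glycolytic isomerase, was called lower at −1.29 and PFKFB2, which sets fructose 2,6-bisphosphate, higher at 0.84, both singled out after their values were seen.

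At 28 µM 0 of the 73 HIF targets were called, 8 at an unadjusted p under 0.05 with the size limit (653 of all 24251 genes), and the median was −0.12. Without 28 µM replicate 4 the calls were 6 higher and 5 lower at 28 µM, beside 1.44% and 0.986% of all genes. At 42 µM they were then 6 higher and 10 lower, beside 2.23% and 1.88%. The calls at 42 µM leaned on single arrays in the other direction as well. Dropping either DMSO replicate 2 or 42 µM replicate 2 left 0 HIF targets called. STC2, at limma adjusted p = 0.0112 with all arrays, was then at limma adjusted p = 0.0506 and 0.0523. The 11 genes named above kept their sign in all 24 alternatives tried. Leaving out DMSO replicate 1 gave 2 higher and 1 lower, and leaving out DMSO replicate 4 gave 3 and 0. The lower calls came to 0 when DMSO replicate 3 was dropped, to 3 and 2 when 28 µM replicate 2 or 3 was, and to 1 for 42 µM replicate 1 or 3. Apart from the fit without 28 µM replicate 4, no share of all genes stands beside these counts. They are therefore not read as particular to HIF targets.

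Of 11 tested genes for the partner subunits, hydroxylases, the VHL ligase and the coactivators, 0 were called in limma at 42 µM, beside 3.00% of all genes, and 0 passed an unadjusted p under 0.05 with the size limit. Their log2 fold changes ran from −0.35 to 0.48. There were 3 genes, named after their values were seen, with 42 µM arrays wholly on 1 side of DMSO. Of all genes 5.94% lay wholly above and 7.02% wholly below, shares at which 11 genes say little. VHL, the ligase's recognition subunit, lay above at 0.48 (SE 0.16; 13.48 ± 0.16 with DMSO and 13.96 ± 0.14 at 42 µM, SD, n = 4). The ligase adaptors ELOB and ELOC lay below at −0.30 (SE 0.10) and −0.35 (SE 0.12). A dimmer probe of ELOB was called lower at −1.03.

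The pattern of VEGFA was also set against the 24199 tested genes outside the 10 with a value on all 12 arrays. None of the nearest 5 was on the hypoxia lists, but with 73 HIF targets among 24251 tested genes that says little. The likeness was the root mean square difference between the deviations from the DMSO mean over the 12 arrays. The nearest 5 were NINL (0.145), XLOC_l2_015849 (0.149), PNMA3 (0.151), the unnamed probe A_24_P802562 (0.154) and ACAT2 (0.160), where the median gene was at 0.898. VEGFB was at 0.201 and took place 22. The 8 remaining members lay further away, from 0.801 for EPAS1 to 1.464 for SLC2A1, the latter at place 23895. A gene without any deviation would lie at 0.852. EPAS1, CA9 (0.894) and ANGPTL4 (0.922) lay near that value, so their distances restate that they changed little. NINL had log2 fold changes of 0.71 and 1.08 and, like VEGFA, a level at 28 µM replicate 4 close to DMSO, −0.07 from the DMSO mean.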

How the data were processed

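RNA of 12 HuH-7 cultures, 4 each with DMSO, 28 µM or 42 µM SLMP53-2, was measured on 1-colour Agilent arrays. The authors deposited Feature Extraction output (version 10.7.3.1 per the labels) with mean and background intensities and a processed signal intensity for each spot, and a table of log2 values that the authors had Edwards-corrected and quantile normalised, used here as an alternative. Probe positions are hg19 per the file headers. The fold changes behind the text were computed here from the intensities.

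Spots of controls or with an outlier flag were dropped. limma 3.58.1 (R 4.3.3) then corrected the background by the Edwards method and quantile normalised the arrays, and the spots of a probe were averaged on the log2 scale. Probes well above background on fewer than 2 arrays in every group were left out, which kept 33467 of 41000. The model (lmFit, then eBayes) took all 12 arrays in 3 groups without covariates, with two-sided tests and Benjamini-Hochberg adjustment over those probes. The brightest tested probe stands for a gene. Probes took RefSeq names where the accession matched (28078), otherwise the name of the array design.

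The members and lists were chosen with earlier results of these data known. Named by rule are the members, the called genes of the HIF, VEGF and HIF component lists at 42 µM (at most 8 each way), and the 5 genes nearest VEGFA. VHL, ELOB, ELOC, TPI1 and PFKFB2 were named outside this rule, after their values were seen. The lists (HIF targets, HIF components, VEGF family, ATF4 targets, and liver, endothelial, fibroblast and leukocyte markers) came from general knowledge. The summed fibroblast markers lay between 10.88 and 11.21 and the leukocyte markers between 9.56 and 10.58 over all arrays. The procedure was tested on simulated data. Alternatives were other background and scaling methods, filters, slide or replicate blocks, array weights, limits and leaving out each array. Replicate numbers were not taken to pair the samples. Figures used Python 3.11.15 and matplotlib 3.10.9. Proteins, qPCR and other lines were not analysed here.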

Additional observations from a re-analysis of the deposited data

Results flagged for a closer look

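Of 30 sets of 4 arrays (10 genes in 3 groups), 6 held an array whose gap to its nearest neighbour took most of the set's range (above the 95% critical value of Dixon's ratio), where chance alone marks about 1 set in 20. The level of VEGFA on 28 µM replicate 4 was 8.39 with the others between 9.46 and 9.53, and VEGFB on the same array was 10.73 with the others between 11.92 and 12.02. VEGFA on DMSO replicate 2 was 8.78 with the others between 8.44 and 8.46, and ADM on that array was 11.41 with the others between 11.60 and 11.62. SLC2A1 was 9.75 on 28 µM replicate 3, with the others between 10.06 and 10.11, and 9.37 on 42 µM replicate 2, with the others between 9.95 and 10.06. The gap of 28 µM replicate 4 was not confined to these genes. Of all genes at 28 µM, 0 were called with it, and 350 higher and 239 lower without it. On it the ATF4 list had a median deviation from the DMSO mean of −0.03, against 1.85, 1.88 and 1.71 on 28 µM replicates 1 to 3. What set the flagged arrays apart was not tested.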

How the results depend on the processing

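VEGFA kept its direction in all 24 alternatives at both doses, its log2 fold change lying between 0.58 and 0.96 at the lower dose and between 1.11 and 1.31 at the higher. SLC2A1, NDRG1, BNIP3 and ADM stayed below 0 at 42 µM in all 24, and VEGFB stayed above. With each array left out in turn the log2 fold change of VEGFA ran from 1.11 up to 1.31 for 42 µM and from 0.58 up to 0.96 for 28 µM. Between 0 and 4 members were called at 42 µM, and between 0 and 2 at 28 µM. The HIF targets called at 42 µM numbered 0 to 7 higher and 0 to 10 lower, and those at 28 µM 0 to 11.

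At 42 µM the main fit called 381 of all genes higher and 346 lower. Agilent's processed signal with quantile normalisation gave 1 member called and 1 HIF target lower, beside 206 of all genes higher and 177 lower. Edwards values scaled to the 75th percentile gave 4 members and 9 HIF targets lower, beside 256 of all genes higher and 421 lower. So the lower calls among HIF targets moved with those among all genes under these scalings. With the slide as a block 0 members and 0 HIF targets in either direction were called, and VEGFA stood at 1.22 (limma adjusted p = 0.0693, with 0.000597 to 0.075 over all its alternatives). With the slide as a random block 4 members and 9 HIF targets lower were called, with array weights 5 and 10, and with a log2 limit of 1 they were 1 and 2. A model of only the 2 groups compared gave 9 HIF targets lower. Counting any probe of a gene, 1 HIF component was called. The replicate number as a block gave 4 members and 11 HIF targets lower. The numbers share no stated litter or day, and same-numbered arrays deviated together (r over 0.1) in 7 of 12 pairs, with r from −0.46 to 0.62. Differently numbered arrays did so in 11 of 36 pairs, with r from −0.59 to 0.57, so a pairing is not settled. For the settings other than these scalings, calls among all genes were not set beside the counts. None of the counts is read as particular to the lists. The cause of these shifts was not tested.

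The fitted difference of CA9 at 28 µM, a probe near background from which no direction is read, turned from 0.01 to −0.90 and −0.42 with the processed signal under quantile and 75th percentile scaling, and that of EPAS1 at 42 µM to −0.17 under the latter. CA9 had no value under the strict filter. CA9 and the dimmer probes were near background, which limits what the arrays can show for them.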
